A study of Mus musculus with 14 samples.

Results

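Macrophages and other myeloid cells of the gut wall were read here through 10 genes on expression arrays of mouse intestine, intestinal tumours and a colon carcinoma line. The genes were Csf1r, Cd68, Lyz2, Mrc1, Cd163, Itgam, Itgax, Cd14, Arg1 and Nos2. They were taken from the array by name, which gave 14 probes of 55681 that are not controls, and 10 names of 36161. Csf1r and Itgam have 3 probes each and the other genes have 1. The rule used names and no measured value.

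Macrophages of the intestine are replenished from blood monocytes and depend on the receptor encoded by Csf1r. They are among the largest macrophage populations of the body, clear bacteria and dying cells, and are also found in intestinal tumours. Arg1 and Nos2 encode enzymes that compete for arginine and are widely used to describe opposite activation states of macrophages, Arg1 the alternative and Nos2 the inflammatory one. None of the 10 genes belongs to macrophages alone, since neutrophils, dendritic cells, epithelium and stromal cells can express several of them.

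The arrays were one-colour Agilent arrays of 14 samples. Small intestine (3 arrays) and colon (3) are labelled as C57BL/6J, and adenomas (3) and the tissue adjacent to them (2) as ApcMin/+, mice that carry a truncating allele of the tumour suppressor Apc and develop adenomas in the small intestine. All mice had a C57BL/6J background, and wild-type animals were adults older than 8 weeks. CT26 (3 arrays) is a BALB/c colon carcinoma line obtained from ATCC and grown in culture, so no leucocytes of a host are in it. In the sample list of the study the small intestine arrays are of different mice, whereas the adenoma and adjacent pieces all belong to 1 ApcMin/+ mouse, so that the spread among them is a spread within an animal, and 1 of the colon samples is placed under an ApcMin/+ mouse although the labels give C57BL/6J for all 3.

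Levels are given as the log2 of the background-subtracted signal minus the 75th percentile of the array, so that 0 is the level that 75% of the probes do not exceed and 1 unit is a doubling. Levels of different probes cannot be set against each other. Testing needed a probe to stand well above background, by the flag of the scanner software, throughout one of the groups compared. Calls of higher or lower needed a log2 fold change of at least 1.2 either way together with an adjusted p of at most 0.01 in limma, read from the brightest probe of the gene. The share of probes well above background ran from 46.85% to 58.2% over the 14 arrays.

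Colon replicate 3 did not look like the other colon arrays. Its median over 10 markers of small intestine enterocytes was 5.04, against -3.63 and -4.34 on colon replicates 1 and 2, and its median over 7 Paneth cell markers was 8.73, against -3.12 and -2.61. Its median over 10 colonocyte markers was 0.14, against 5.30 on each of the others. The counts of the 10 genes in comparisons with colon are therefore given with and without it. Of 6 leucocyte markers (Ptprc and Coro1a among them), at least 5 stood above background on every tissue array and 2 on each CT26 array. Of 8 epithelial markers, 3 or 4 stood above background on the CT26 arrays and all 8, Epcam and Krt8 among them, were called lower there than in colon.

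**Figure D1:**
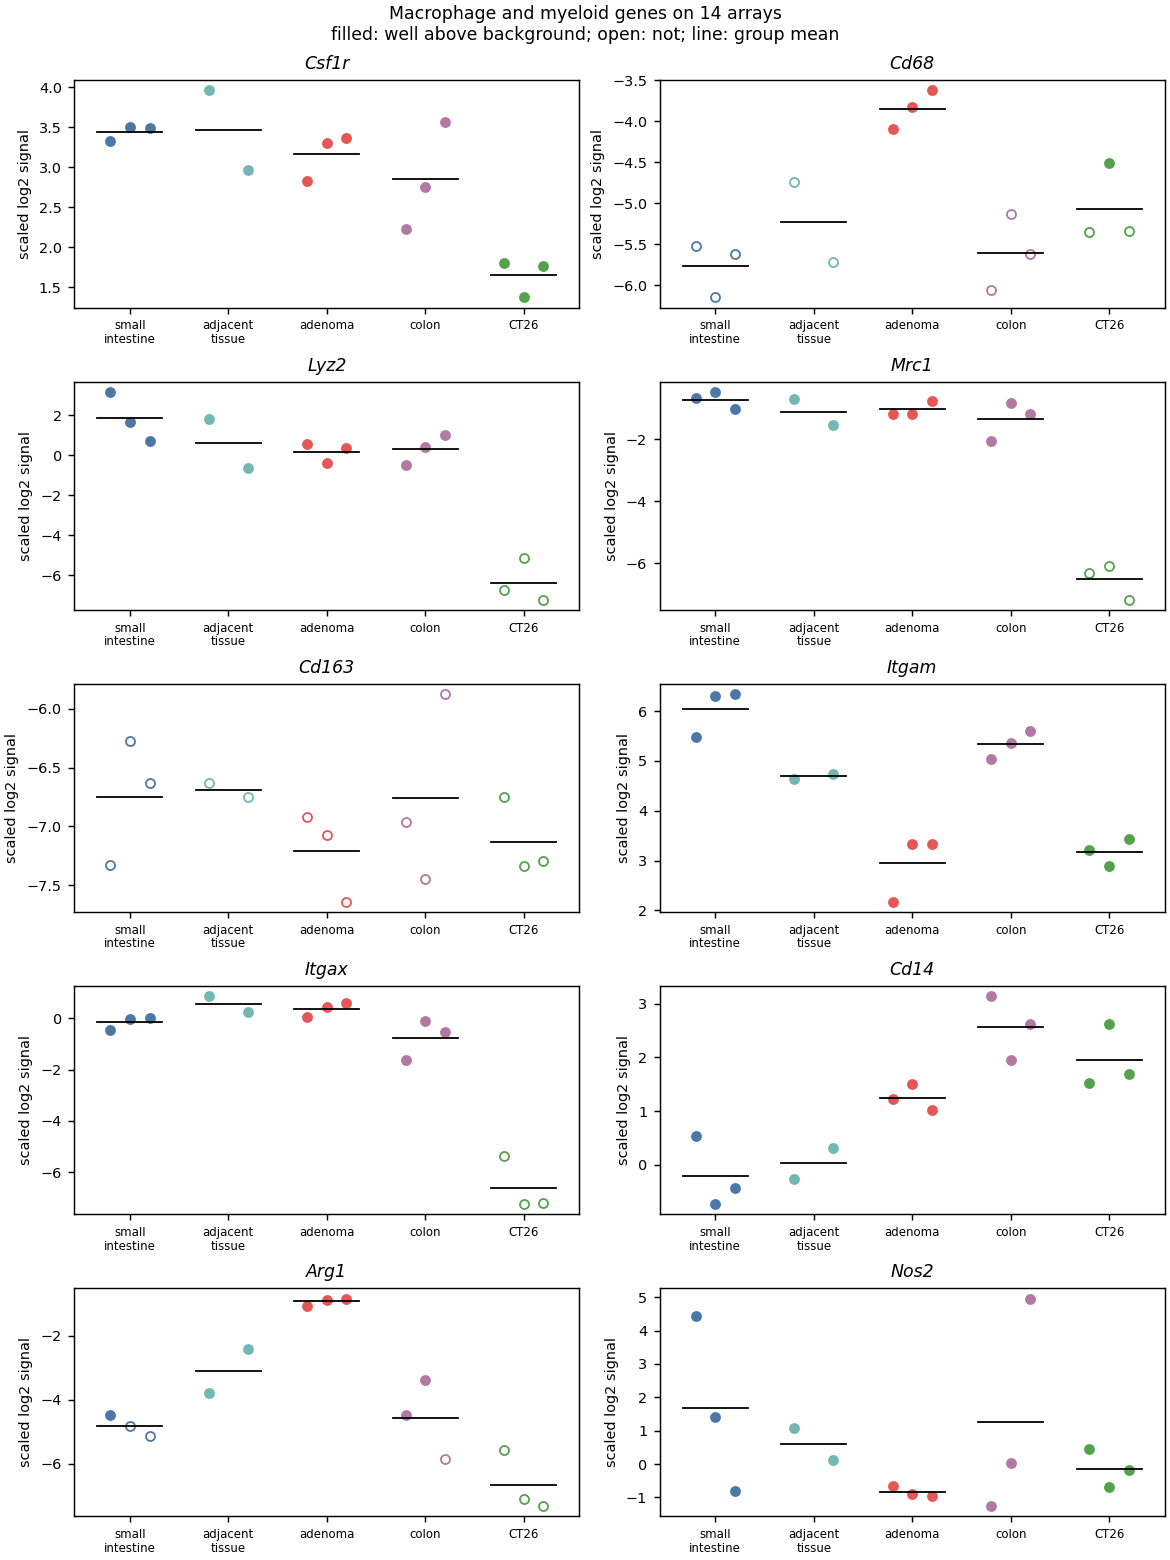
Scaled log2 signal of the brightest probe of each gene on the 14 arrays, by group, with the vertical scale set separately for each gene. Filled points were well above background, open points were not, and lines are group means. Arg1 and Cd68 stand highest on the 3 adenoma arrays, and Lyz2, Mrc1 and Itgax are open points on all 3 CT26 arrays.

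In the adenomas, the tumours of main interest in the design, Arg1 and Cd68 were called higher than in healthy small intestine and Itgam was called lower. The Itgam call came from a probe with a dinucleotide repeat. With its nearest upstream probe, which is free of that repeat, Itgam was not called. The other 6 tested genes were not called, and Cd163 was not tested. Thus 2 of 9 tested genes were called higher, against 11.3% of all genes tested, and 1 was called lower, against 11.1%. Arg1 and Cd68 were tested only through the adenoma arrays. In small intestine Arg1 stood above background on 1 of 3 arrays and Cd68 on 0 of 3. Over all 10 genes the median difference was -0.29, and over all names on the array it was -0.39. The probes tested had a median fold change of -0.15 on the log2 scale, against which the fold changes of this comparison are read.

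Arg1, which encodes the liver-type arginase that splits arginine into ornithine and urea, had the largest difference between adenoma and small intestine among the 9 tested genes (probe at chr10:24636194-24636253, minus strand, NCBI37/mm9). Its level was -1.07, -0.88 and -0.84 in the adenomas. It was -4.49, -4.82 and -5.12 in small intestine, where only the first of these stood above background. It was -3.79 and -2.40 in adjacent tissue, -4.46, -3.38 and -5.83 in colon, and -5.55, -7.10 and -7.31 in CT26, where no array stood above background. In bulk tissue, fewer cells of a type and less RNA per cell cannot be told apart. All 3 adenomas lay above every other array, and adjacent tissue lay between adenoma and small intestine without overlap. The log2 fold change against small intestine was 3.88 (SE 0.205, adjusted p 6.97e-05 in limma), with 3.85 and 3.94 on the separate slides. It was 2.02 with normexp background correction and 2.18 in the authors' table, and the gene was called in both, so that the size of the difference depended on the processing. Against adjacent tissue it was 2.16 (SE 0.402, adjusted p 0.0209), which missed the threshold. Without adjacent replicate 2, the higher of the adjacent arrays, it was 2.86, with 1 adjacent array left. Over all settings it ran from 1.33 to 2.86. Adjacent tissue against small intestine gave 1.71 (SE 0.448, adjusted p 0.0813).

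Nos2, which encodes the inducible nitric oxide synthase that also uses arginine, showed no comparable pattern. Its level was 4.42, 1.41 and -0.82 in small intestine and -1.25, 0.04 and 4.96 in colon, a wide range within each group. In adjacent tissue it was 1.08 and 0.13, in the adenomas -0.66, -0.91 and -0.95, and in CT26 0.45, -0.68 and -0.18. The 3 adenomas lay close together and overlapped with the lowest small intestine array. No comparison called Nos2 with all arrays and the 75th percentile scaling. Adenoma against small intestine gave -2.51 with an SE of 1.16 and an adjusted p of 0.106 in limma. Adenoma against adjacent tissue gave -1.44 (SE 0.304, adjusted p 0.0283), with no overlap of arrays. It was called with normexp (-1.28, adjusted p 0.00836 in limma). Without adjacent replicate 2, which leaves 1 adjacent array, the difference was -1.92. Over all settings it ran from -1.92 to -0.97. The colon values rested on colon replicate 3. CT26 minus colon was -1.39 with it and 0.47 without it, and neither was called.

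Of 10 other genes of arginine metabolism, 8 were tested between adenoma and small intestine. Nos3, the endothelial nitric oxide synthase, rose by 2.03 and Ass1, which rebuilds arginine from citrulline, rose by 1.90. The urea cycle gene Otc fell by 3.21, the mitochondrial arginase Arg2 fell by 2.56 and Oat fell by 1.52. Arg2 and Otc were also lower than in adjacent tissue, where they fell by 1.90 and 2.39. Of the arginase genes, Arg1 rose and Arg2 fell. Endothelial markers were higher in adenomas as well (3 of 5 called), as were fibroblast markers (3 of 6), while enterocyte markers (7 of 10), Paneth cell markers (5 of 7) and T cell markers (3 of 6) were lower, and their part in these changes was not tested. Of the 6 leucocyte markers, all tested, 0 were called higher in adenomas. Ptprc alone, the CD45 gene of all leucocytes, was called lower (fell by 1.43, adjusted p 0.00396 in limma). The median difference over the 6 markers was 0.12, against -0.39 for all names on the array. Their medians on the single arrays overlapped between adenoma and small intestine.

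Cd68, which encodes a lysosomal glycoprotein of phagocytes (probe at chr11:69478979-69479038, minus strand), was above background only in the 3 adenomas and on 1 CT26 array. Its level was -4.09, -3.82 and -3.62 in the adenomas. It was -5.51, -6.15 and -5.62 in small intestine, -4.74 and -5.71 in adjacent tissue, and -6.05, -5.12 and -5.62 in colon. In CT26 it was -5.35, -4.50 and -5.34, of which the second stood above background. The adenomas lay above all other arrays, but the signal was low throughout. Adenomas were at least 1.57-fold higher than small intestine, against the lowest signal that counted as above background (adjusted p 0.000805 in limma for a fitted log2 difference of 1.91). Both Arg1 and Cd68 drop out where a probe must be above background in both groups. Cd68 was not called with normexp background correction (0.18, adjusted p 0.418) or in the authors' table (0.45, adjusted p 0.0315). Against adjacent tissue it was at least 1.56-fold higher (adjusted p 0.0361) and was not called.

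Cd14, which encodes the co-receptor that hands lipopolysaccharide to Tlr4, came close to the threshold. Its level was 0.52, -0.73 and -0.43 in small intestine and -0.26 and 0.31 in adjacent tissue, groups that overlapped. It was 1.23, 1.51 and 1.01 in the adenomas, above every array of both groups. In colon it was 3.14, 1.96 and 2.63, and in CT26 1.53, 2.63 and 1.70. By mean level the order was colon, CT26, adenoma, adjacent tissue and small intestine, in which colon and CT26 overlapped, as did adjacent tissue and small intestine. The adenoma against small intestine difference was 1.46 (SE 0.336, adjusted p 0.0106 in limma), and it was called with normexp, with quantile normalization and in the authors' table. Without small intestine replicate 1, the array nearest to the adenomas, it was 1.83 with an adjusted p of 0.000976. Against adjacent tissue it was 1.23 (adjusted p 0.025), and against colon it was lower by 1.33 (adjusted p 0.0546). Colon exceeded small intestine by 2.79 (adjusted p 0.056), and by 2.76 (adjusted p 0.0148) without colon replicate 3. With all 5 groups in a single fit this difference was called (adjusted p 0.00195).

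The rest of the lipopolysaccharide receptor pathway was tested in full (9 genes). In adenomas against small intestine Lbp, which delivers lipopolysaccharide to Cd14, rose by 4.51, Tlr2 by 3.77 and Tlr4 by 3.32, while the adaptor gene Ticam1 fell by 1.52. Tlr4 was also higher than in adjacent tissue (1.67, adjusted p 0.00692). The median difference over the 9 genes was -0.30, against -0.39 for all names on the array.

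Csf1r encodes the receptor for colony-stimulating factor 1 that macrophages need to survive. It was not called in any comparison by its brightest probe. It was called lower in CT26 than in colon under 4 other settings of this reading (quantile normalization, the authors' table, a fit of all 5 groups and the mean of its probes), and with another probe described next. The level was 3.32, 3.51 and 3.50 in small intestine, 3.96 and 2.96 in adjacent tissue, 2.82, 3.31 and 3.37 in adenomas, and 2.23, 2.75 and 3.57 in colon. In CT26 it was 1.80, 1.37 and 1.77, the lowest of the groups, and all 3 arrays were below every tissue array. Against colon this was -1.2 (SE 0.394, adjusted p 0.0349; without colon replicate 3 -0.84, adjusted p 0.0563), and against small intestine the adenoma difference was -0.28 (SE 0.197, adjusted p 0.269). A probe whose matching bases lie 361 bases apart from end to end, which means that it crosses an intron, read -1.95, -1.45 and -1.56 in small intestine, -0.77 and -1.72 in adjacent tissue, -1.90, -1.59 and -1.21 in adenomas, -2.44, -1.74 and -2.34 in colon, and -4.66, -4.90 and -4.33 in CT26, where 2 of 3 arrays stood above background. This probe was called lower in CT26 than in colon (-2.46, SE 0.323, adjusted p 0.000577 in limma), and likewise without colon replicate 3 (-2.54, adjusted p 0.000757). The third probe read 0.34, -0.26 and -0.36 in small intestine, -1.07, -1.11 and -0.99 in adenomas, and -1.76, -1.47 and -1.36 in CT26. It was lower in adenoma than in small intestine by 0.96 (adjusted p 0.00988), below the fold threshold. The probes correlated over the 11 tissue arrays with r of 0.65, 0.52 and -0.09, and over all 14 with r of 0.91, 0.77 and 0.63, a description of 3 probes on the same libraries.

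Both ligands of the receptor were higher in adenomas than in healthy small intestine, but were not called against adjacent tissue, where Csf1 differed by 0.49 (adjusted p 0.155) and Il34 by -0.03 (adjusted p 0.935). Of 8 growth factors and attractants of monocytes, 7 were tested against small intestine, and 4 were higher. Ccl2, the main monocyte attractant, rose by 4.94, Csf1 by 2.07 and Il34, the second ligand of Csf1r, by 2.07. Ccl7 was at least 7.998-fold higher (adjusted p 0.00321 in limma). Cx3cl1 fell by 1.61. Ccl2 (3.40) and Ccl7 (at least 7.91-fold) were also higher than in adjacent tissue. The receptors that were called were Csf2rb (1.86) and Cx3cr1 (1.37), both higher than in small intestine.

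Lyz2, which encodes the lysozyme of macrophages and neutrophils, varied within groups. The level was 3.14, 1.68 and 0.68 in small intestine, 1.81 and -0.62 in adjacent tissue, 0.55, -0.42 and 0.34 in adenomas, and -0.48, 0.38 and 0.998 in colon. It was -6.76, -5.17 and -7.23 in CT26, where no array stood above background. The adenoma difference against small intestine was -1.68 (SE 0.599, adjusted p 0.0505 in limma) and was not called, and the arrays of those groups did not overlap. CT26 lay at least 38.8-fold below colon (adjusted p 9.04e-05). The probe, which lies at chr10:116719175-116719234 on the minus strand of NCBI37/mm9, is shown because its neighbour gene encodes nearly the same protein.

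Lyz2 probe: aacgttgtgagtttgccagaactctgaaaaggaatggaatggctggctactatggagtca

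Lyz1, the Paneth cell lysozyme next to it, is a near-copy of Lyz2, and how much Lyz1 RNA this probe picks up was not measured. The longest run shared between the Lyz2 and the Lyz1 probe is 6 bases, which does not tell how well the Lyz2 probe matches Lyz1 RNA. Lyz1 was at 8.79, 9.29 and 8.15 in small intestine, 7.62, 7.23 and 7.70 in adenomas, and 2.58, 3.05 and 9.44 in colon. On colon replicates 1 and 2, where Lyz1 was lower than on every other tissue array, Lyz2 stood at -0.48 and 0.38, against -0.42 to 0.55 in adenomas. Colon replicate 3 had the highest level of the colon arrays for both Lyz1 (9.44) and Lyz2 (0.998). In adjacent tissue Lyz1 and Lyz2 were at 9.10 and 1.81 on replicate 1, and at 7.32 and -0.62 on replicate 2. Lyz1 and Lyz2 correlated over the 11 tissue arrays with r of 0.56 and over all 14 arrays with r of 0.93, a description of those libraries.

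Mrc1 and Cd163 mark tissue macrophages of the alternative type. Mrc1 encodes the mannose receptor, and its level was -0.67, -0.49 and -1.03 in small intestine, -0.71 and -1.54 in adjacent tissue, -1.18, -1.17 and -0.77 in adenomas, and -2.05, -0.83 and -1.18 in colon (probe at chr2:14253273-14253332). The tissue groups overlapped, and the adenoma difference was -0.31 against small intestine (SE 0.212, adjusted p 0.248) and 0.08 against adjacent tissue (SE 0.291, adjusted p 0.852). In CT26 it was -6.29, -6.09 and -7.16, with no array above background, at least 12.3-fold below colon (adjusted p 6.52e-05 in limma). Cd163, the scavenger receptor for haemoglobin-haptoglobin, stood above background on 0 of 14 arrays. Its measured values ran from -7.64 in an adenoma to -5.88 on a colon array, and it was left out of the main tests for that reason.

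Among 19 other genes of tissue macrophages, 15 were tested between adenoma and small intestine. Trem2, a lipid receptor of macrophages, was higher by 3.27, and Mertk, which drives the uptake of dying cells, fell by 3.01. Trem2 (at least 7.06-fold) and Mertk (fell by 1.84) were also called against adjacent tissue. The median level of the list was between -1.80 and -1.47 on the adenoma arrays and between -2.26 and -1.23 in small intestine, ranges that overlapped. Of the transcription factor genes of myeloid cells, which are also expressed in other cells, Maf fell by 3.08 and Nr1h3 fell by 2.57. Of genes of alternative activation, 9 were tested: Chi3l3 rose by 2.34, and Retnla was at least 12.7-fold lower in adenomas.

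**Figure D2:**
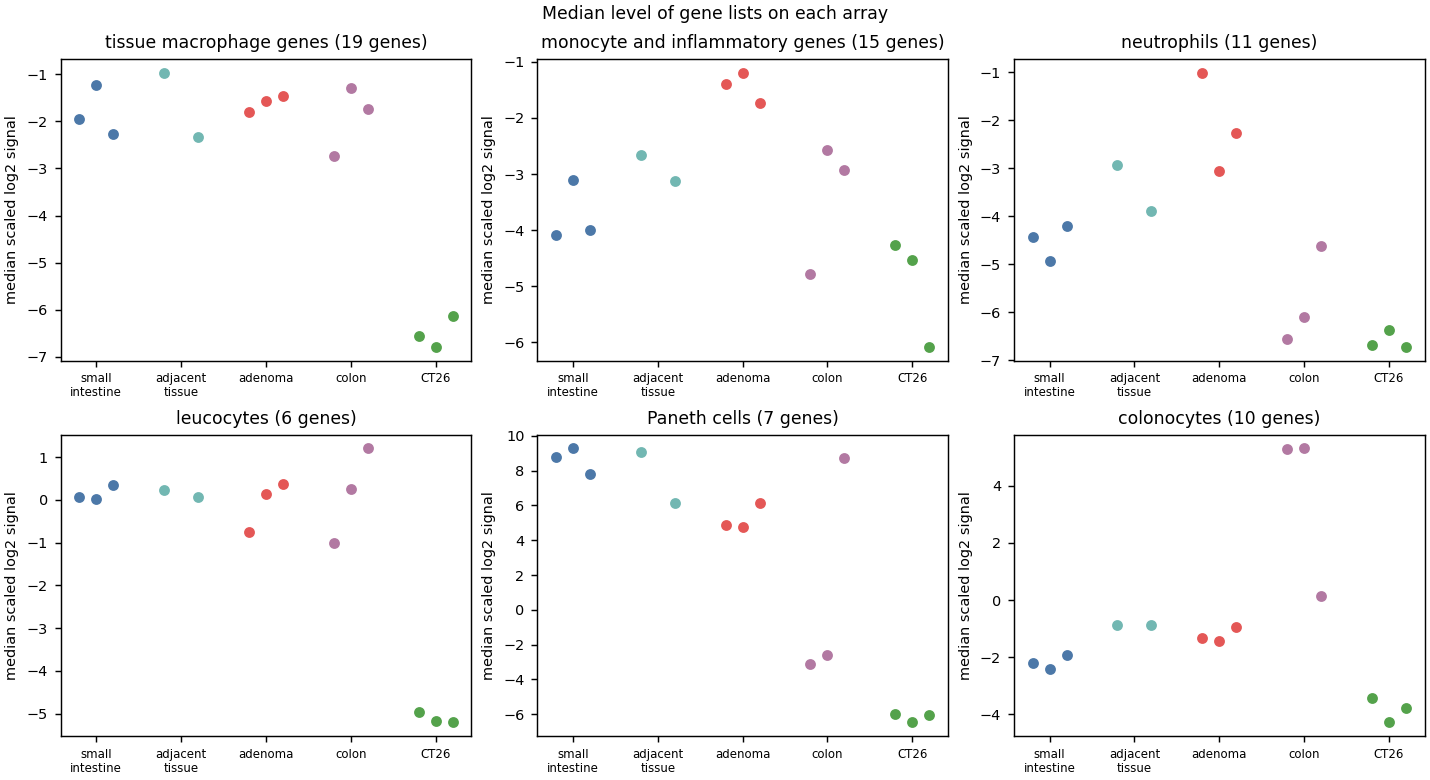
Median scaled log2 signal of gene lists on each array, with the number of genes on the array in the panel title and a separate scale per panel. Tissue macrophage genes overlap between the tissue groups and drop in CT26, monocyte and inflammatory genes stand highest in adenomas, and colon replicate 3 carries the Paneth cell signal of small intestine.

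Of monocyte and inflammatory genes, 6 were called higher in adenomas. Of 15 on the array, 13 were tested against small intestine and 0 were lower. Il1b rose by 4.51, F13a1, a transglutaminase of monocytes, by 4.79, and Ptgs2, which makes prostaglandins, by 3.50. Il6 was at least 13.4-fold higher. The median over the list was between -1.74 and -1.2 on the adenoma arrays and between -4.09 and -3.11 in small intestine. Of 11 neutrophil markers 8 were tested and 4 rose, S100a9 by 5.92 and Ltf by 5.85, and 4 of 7 mast cell markers rose. The neutrophil median was between -3.06 and -1.01 in adenomas and between -4.93 and -4.20 in small intestine, and the part of these cells in the inflammatory genes, Cd68, Cd14 and Arg1 was not tested. Phagosome and lysosome genes were mixed, with Ctsk (1.59) and Lamp2 (1.43) higher and Ctss lower (fell by 2.40). Of the 10 integrin partners and adaptors, all tested, Icam1 was called, at least 5.75-fold higher.

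Itgam encodes the alpha chain of the integrin Mac-1 (CD11b) of macrophages and neutrophils. Its 3 probes gave different values. The brightest is shown in its first 30 bases, and the nearest upstream probe whole. The former opens with a dinucleotide repeat, and 26 other probes of the array hold at least 18 bases of such a repeat. In the first, capitals mark the dinucleotide repeat of 20 bases. Both are on chromosome 7 of NCBI37/mm9, at chr7:135261755-135261814 and chr7:135260275-135260334, plus strand.

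Itgam brightest probe, first 30 bases: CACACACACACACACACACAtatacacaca
Itgam nearest upstream probe: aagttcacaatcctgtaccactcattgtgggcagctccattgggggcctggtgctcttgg

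The brightest probe read 5.47, 6.31 and 6.34 in small intestine, 4.64 and 4.74 in adjacent tissue, 2.17, 3.34 and 3.33 in adenomas, 5.04, 5.36 and 5.60 in colon, and 3.22, 2.88 and 3.43 in CT26. It was the reading by which Itgam was called lower in adenoma than in small intestine (-3.09, SE 0.388, adjusted p 0.000968 in limma) and lower in CT26 than in colon (-2.15, SE 0.303, adjusted p 0.000812). The nearest upstream probe gave -1.97, -2.02 and -2.27 in small intestine, -1.86 and -2.60 in adjacent tissue, -2.98, -2.77 and -2.94 in adenomas, -3.38, -3.26 and -1.82 in colon, and -3.75, -4.17 and -3.46 in CT26. There the adenoma difference was -0.81 (SE 0.165, adjusted p 0.00662), below the fold threshold, and CT26 against colon gave -0.97 (adjusted p 0.121), or -0.47 (adjusted p 0.248) without colon replicate 3. With this probe Itgam was not called in any comparison. The most upstream probe was near background (9 of 14 arrays above it) and ran from -5.08 to -3.59. The brightest and the nearest upstream probe correlated over the 11 tissue arrays with r of 0.47.

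The motif CACACACACACACACACA (18 bases, in either phase) is held as printed by 27 probes of the array, 0.0485% of the probes, and by 90 (0.162%) when both strands are counted. All 27 stood above background on every array, against 37.4% of all probes, and all 27 were lower in adenoma than in small intestine, with a median difference of -2.90 against -0.43 over all probes. The 26 others had a median r of 0.989 with the Itgam probe and a lowest r of 0.651 (14 arrays). Their group medians were 4.64 in small intestine, 3.33 in adjacent tissue, 1.76 in adenomas, 3.90 in colon and 1.58 in CT26. The genes most like this probe, Fgf23 (r of 0.9995) and Idua over the 14 arrays and Snap25 over the 11 tissue arrays, were read from probes with the same motif.

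**Figure D3:**
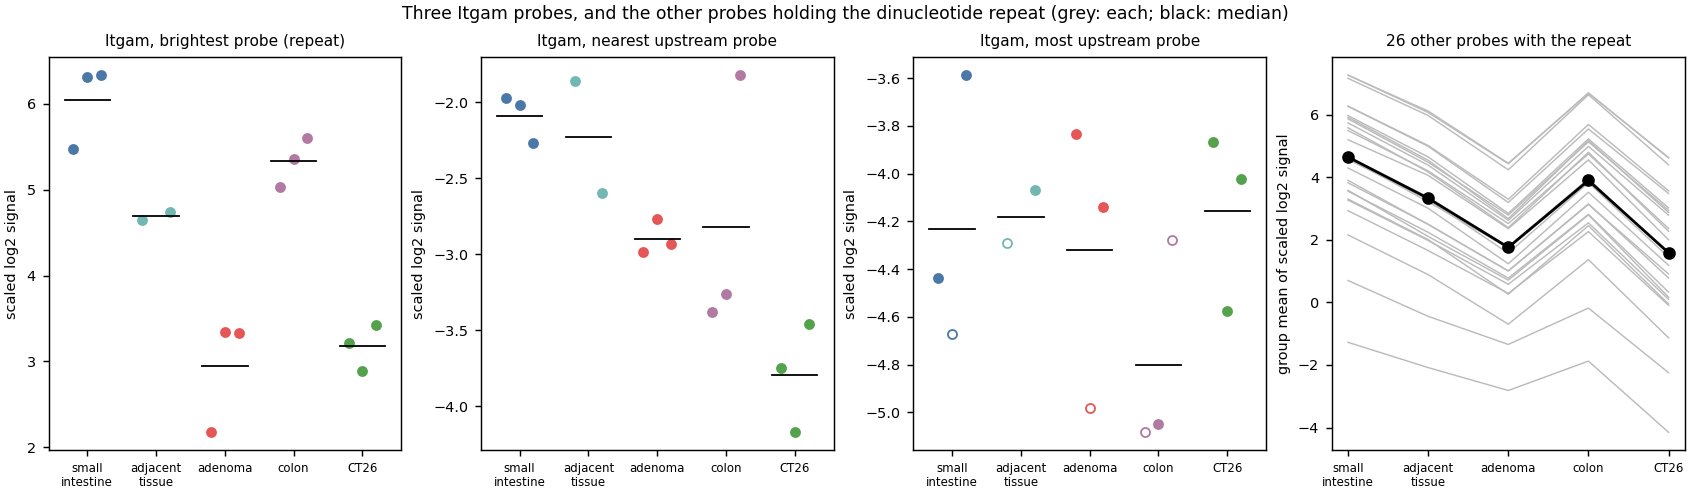
Scaled log2 signal of the 3 Itgam probes on each array (open points not above background), and group means of the 26 other probes that hold the 18-base repeat motif, in grey with their median in black. The brightest Itgam probe and the median of the other repeat probes are both highest in small intestine, then colon, then adjacent tissue, with adenoma and CT26 lowest, and the nearest upstream probe has a smaller range.

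Itgax (probe at chr7:135294052-135294111) encodes CD11c, the integrin alpha chain of dendritic cells and intestinal macrophages. The level was -0.46, -0.03 and 0.01 in small intestine, 0.85 and 0.25 in adjacent tissue, 0.06, 0.45 and 0.58 in adenomas, and -1.64, -0.11 and -0.53 in colon. The adenomas lay above small intestine by 0.52 (SE 0.215, adjusted p 0.0784 in limma) without overlap, and this was not called. In CT26 it was -5.35, -7.22 and -7.20, with no array above background, at least 18.6-fold below colon (adjusted p 0.000193). Over the 11 tissue arrays the Fc receptor genes Fcgr3 (r of 0.95) and Fcgr4 (r of 0.94) were among the 3 genes most like it, of 25098 compared, and over all 14 the complement genes C1qc and C1qa (r of 0.99 each) led. For Arg1 over the tissue arrays these were Btc, Morc2a and Ikbkap (r of 0.98 to 0.99), for Cd68 Adamts7, Selp and Chst11 (0.95 to 0.96), and for Cd14 Stk38l, Zfp318 and Esrp1 (0.95). These correlations are over 11 or 14 libraries that fall into groups, and they are given as a description. Among the 10 genes themselves, Mrc1 and Lyz2 had an r of 0.97 over the 14 arrays and 0.72 over the 11 tissue arrays, and Csf1r and Mrc1 0.88 and 0.70. Cd68 and Arg1, the genes called higher in adenomas, had an r of 0.84 over the tissue arrays. Other pairs went opposite ways there. The repeat probe of Itgam had an r of -0.89 with Arg1 and -0.85 with Cd68, and Cd14 had -0.62 with each of Csf1r, Mrc1 and Itgax.

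**Figure D4:**
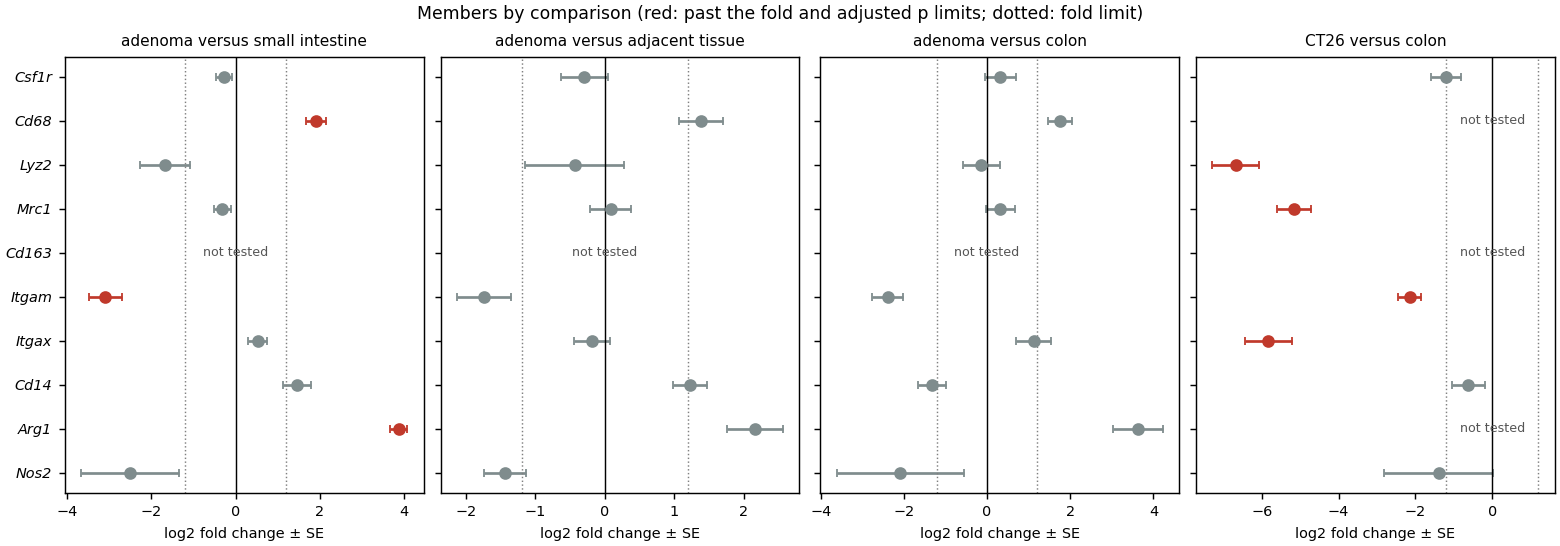
Log2 fold change with its standard error for each gene in 4 comparisons, with called values in red and the fold limit of 1.2 dotted. Arg1 and Cd68 are called higher and Itgam lower in adenoma against small intestine, and Lyz2, Mrc1, Itgam and Itgax lower in CT26 against colon. Itgam is drawn from its repeat probe, and with its nearest upstream probe it was not called.

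The comparisons of adenoma with adjacent tissue and of adjacent tissue with small intestine share arrays with the first and are given side by side. In adenoma against adjacent tissue 9 genes were tested and 0 were called in limma, against 2.4% of all genes called higher and 1.78% lower, while 5 had an unadjusted p under 0.05. So had 11324 of all 29733 probes tested. In adjacent tissue against small intestine 8 were tested and 0 called, against 0.00924% higher and 0% lower, and 3 had an unadjusted p under 0.05. So had 8750 of all 28832 probes tested. The adjacent group had 2 arrays.

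In colon against small intestine 7 genes were tested and 0 called in limma, against 0.00484% of all genes called higher and 0.00484% lower, with 1 gene, Cd14, under an unadjusted p of 0.05. Of all 27298 probes tested, 6413 were under it. Without colon replicate 3, 0 of 8 were called, against 3.34% higher and 3.9% lower, and 4 had an unadjusted p under 0.05, as had 12305 of all 30537 probes tested. Csf1r was then lower by 0.96 (adjusted p 0.0425). In adenoma against colon 9 were tested and 0 called, against 2.07% higher and 1.63% lower, and 5 had an unadjusted p under 0.05, as had 8269 of all 29173 probes tested. Arg1 differed by 3.63 (SE 0.592, adjusted p 0.0151) and Cd68 was at least 1.57-fold higher (adjusted p 0.0156), both with all adenomas above all colon arrays. The repeat probe of Itgam gave -2.38 (adjusted p 0.0132), whereas the nearest upstream probe gave -0.07 (adjusted p 0.93), or 0.43 (adjusted p 0.0947) without colon replicate 3. Without colon replicate 3 Arg1 was called higher (2.99, SE 0.332, adjusted p 0.00268), 1 of 9 genes against 5.03% higher and 6.69% lower. Cd68 was then at least 2.13-fold higher (adjusted p 0.0126), Cd14 gave -1.30 (adjusted p 0.05) and the repeat probe of Itgam -2.25 (adjusted p 0.0119), none of them called.

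In CT26 against colon 4 of 7 tested genes were lower, Itgam, Itgax, Lyz2 and Mrc1, and 0 were higher, against 16.2% of all genes called lower and 21% higher. Without colon replicate 3, 5 of 8 were lower, the same 4 genes and Arg1 (at least 2.08-fold, adjusted p 0.00697), against 19.4% lower and 20.1% higher. Lyz2 was then at least 30.5-fold lower (adjusted p 0.000159), Itgax at least 17.2-fold (adjusted p 0.000439) and Mrc1 at least 11.6-fold (adjusted p 0.000138), and the repeat probe of Itgam gave -2.02 (adjusted p 0.0013). Itgam is counted in both by its repeat probe, and with its nearest upstream probe 3 genes were lower with all colon arrays. Itgax, Lyz2, Mrc1 and Arg1 stood above background on 0 of 3 CT26 arrays. They entered the tests through colon alone, so a higher call was not open to them. Where both groups had to be above background, 1 gene was called, Itgam by its repeat probe. Cd14 differed by -0.63 (SE 0.434, adjusted p 0.265) and was not called. Over all probes tested the median fold change was 0.37. Of 19 tissue macrophage genes, 13 were tested and 10 were lower (11 of 14 without colon replicate 3), C1qc (at least 35.6-fold), Ms4a7 (at least 33.6-fold), C1qa (at least 22.3-fold) and Stab1 (at least 26.8-fold) among them. The genes named here also stood above background on 0 of 3 CT26 arrays and were tested through colon alone. Csf1 was higher in CT26 by 6.83, and Cx3cl1 was at least 573.5-fold lower.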

How the data were processed

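RNA of 14 samples was measured on one-colour Agilent arrays, 1 array a sample. The authors deposited scanner output (Feature Extraction 10.7.3.1, probes placed on NCBI37/mm9), in which gProcessedSignal is a background-subtracted intensity. The authors also deposited a table of log2 values normalized between arrays, by a method not given in the sources used here. It served as an alternative, and its 28 flag and detection columns, fold changes and p-values were not used.

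Control and outlier spots were dropped, the log2 intensities of an array were set relative to their 75th percentile, and spots sharing a probe were averaged. The probe with the highest mean over all arrays stood for its gene. Each of 6 pairs of groups was fitted on its own arrays with limma 3.58.1 in R 4.3.3, with Benjamini-Hochberg adjustment over all tested probes. The thresholds are those of the study's methods. Where a group was nowhere above background, the fold is a lower bound set by the lowest signal above background on each array. It holds for the 75th percentile scaling only, and some fitted differences were smaller under other settings. The fit was tested on simulated data. Named genes are the 10 genes, called genes of the lists with the largest changes, and the 3 genes most correlated with each of the 10, leaving out those listed only under an accession. The lists hold 209 names, of which 205 were found. Genes and lists were chosen with earlier results of these data known. Figures were drawn with matplotlib 3.10.9. The number of arrays limits the precision, and p-values with adenoma or adjacent tissue rest partly on the spread between pieces of tissue of 1 mouse.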

Additional observations from a re-analysis of the deposited data

How the results depend on the processing

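Alternatives were normexp (offset 50), quantile normalization, the authors' table, stricter and looser filters and thresholds, 1 fit over the 5 groups, slide or replicate number as a block, the mean of a gene's probes and each array left out. Of the fold changes under them, 678 kept their direction and side of the thresholds, 25 were called only there, 5 lost their call and 22, none called in either setting, turned direction. The lost calls were Cd68 in adenoma against small intestine (normexp, authors' table) and Itgam, in CT26 against colon with the mean of its probes (-0.83) and, chosen after seeing the data, with its probe free of the repeat in both comparisons.

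Csf1r in adenoma against small intestine turned to 0.0097 with quantile normalization, 0.057 in the authors' table and 0.089 with its probe across an intron. Mrc1 in adenoma against adjacent tissue turned to -0.052 with the replicate block. The other 18 came from leaving out an array. Over these, adenoma against adjacent tissue ran from -0.79 to 0.21 for Csf1r, -0.33 to 0.50 for Mrc1, -0.48 to 0.12 for Itgax and -1.65 to 0.78 for Lyz2. Adjacent tissue against small intestine ran from -0.48 to 0.52 for Csf1r, -0.81 to 0.021 for Mrc1, -2.31 to 0.31 for Nos2 and -0.052 to 0.60 for Cd14. Nos2 ran from -2.27 to 0.96 in colon against small intestine and from -2.64 to 0.47 in CT26 against colon. Adenoma against colon ran from -0.034 to 0.58 for Mrc1 and -0.53 to 0.20 for Lyz2.

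The number of genes called between adenoma and small intestine was 3, and 3 to 4 with an array left out. It was 4 with quantile normalization (Cd14 added), 2 with Itgam's other probe, and 2 where both groups had to be above background, where Itgam and Cd14 were called and neither Arg1 nor Cd68 was tested. Between adenoma and adjacent tissue it was 0, but 5 at an adjusted p of at most 0.05 with no minimum fold, 2 with normexp (Arg1 and Nos2) and 1 in the authors' table. It was 0 with any adenoma array left out. Between adjacent tissue and small intestine it was 0 throughout. Between colon and small intestine it was 0, but 1 (Cd14) with all 5 groups fitted, and 0 with any array left out. Between CT26 and colon it was 4, but 1 where both groups had to be above background, since dim CT26 probes then drop out, and 4 to 5 with an array left out. Between adenoma and colon it was 0, but 3 at an adjusted p of at most 0.05, 2 with normexp, 2 in the authors' table, 3 with all 5 groups fitted, and 0 to 1 with an array left out (Arg1 without colon replicate 2 or 3).

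With the replicate number as a replicate block the counts were 3, 0, 0, 0, 4 and 0 in the order adenoma against small intestine, adenoma against adjacent tissue, adjacent tissue against small intestine, colon against small intestine, CT26 against colon and adenoma against colon. Same-numbered arrays deviated together with r of -0.11 to 0.063 between adenoma and small intestine, -0.089 and -0.013 between adenoma and adjacent tissue, 0.32 and 0.11 between adjacent tissue and small intestine, 0.025 to 0.23 between colon and small intestine, -0.12 to 0.085 between CT26 and colon, and -0.28 to 0.038 between adenoma and colon. Arrays of the first group that correlated best with their own number were 0 of 3, 0 of 3, 1 of 2, 2 of 3, 0 of 3 and 0 of 3. In no comparison with 3 pairs was every r above 0.1. Both r were above it between adjacent tissue and small intestine, which are of different mice. The replicate numbers were not taken to pair the samples. The titles number the adjacent arrays differently, and the r by title number was not computed. With the numbers of the adenoma and adjacent titles as a block the count between these groups was also 0. The median of all tested probes between CT26 and colon was 0.37 on the log2 scale, and 0.12 with normexp.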
